A study of Homo sapiens with 40 samples.

Results

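The genes described here are 35 members of the cell's answer to unfolded protein in the endoplasmic reticulum (ER) and to lack of amino acids. Of these, 18 form the ER chaperone branch (chaperones, folding enzymes, genes of ER-associated degradation and the stress sensors) and 17 form the ATF4 branch (ATF4, its partner and target transcription factors, stress effectors and amino acid enzymes). A member was represented by the brightest probe set that the platform annotation pairs with that gene alone; all 35 had one and all 35 passed the filter on dim values, among 11853 genes that passed of 19775 named. The members were measured on 40 arrays of LNCaP, an established human prostate cancer line that depends on the androgen receptor. The labels name 3 control lines (control 1, titled D+E-; control 2, titled D+R-; and control 3, titled M+R-) and 7 clones resistant to MDV3100 (numbers 1, 9, 10, 14, 15, 19 and 24). At 3 days after plating, each was exposed for 24 h to the antiandrogen MDV3100 (enzalutamide) at 10 µM or to its solvent DMSO at 0.1%. Each line and agent had 2 arrays, numbered replicate 1 and replicate 2, so there were 6 control DMSO, 6 control MDV3100, 14 clone DMSO and 14 clone MDV3100 arrays. The labels do not say how the lines or clones were made, nor whether the replicates were separate cultures, so the p-values cover no more than the spread among these samples, which could be technical.

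When unfolded protein builds up in the ER, 3 membrane sensors respond. ERN1 (IRE1) splices XBP1 mRNA into a form that encodes an active transcription factor, ATF6 is cut to release another, and EIF2AK3 (PERK) phosphorylates the translation factor eIF2 alpha, which slows translation in general and favours that of ATF4. XBP1 and ATF6 raise chaperone and degradation genes, while ATF4 is also reached through the amino acid sensor GCN2 and raises genes for amino acid synthesis, uptake and charging of tRNA, with DDIT3 (CHOP) and CHAC1 among its late targets. Secretory prostate epithelium has a large ER load, and androgen is known to act on ER stress genes in this tissue. The array measures RNA, so neither the splicing of XBP1 nor the cleavage of ATF6 was seen here.

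Promoter sequences are shown for 4 members, 2 of each branch, because they hold the elements that the factors of these branches are known to bind. The ER stress element (searched as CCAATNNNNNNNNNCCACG, on both strands) lay in the 250 bases upstream of a start site in 6 of the 18 ER chaperone genes, 33.3%, against 0.0916% of 27305 genes with a window (25 genes) and 0 of 15 ATF4 branch genes. These 6 were HSPA5, HSP90B1, CALR, PDIA6, CRELD2 and XBP1. The core of the amino acid response element (searched as TGATGNAA, both strands) lay in 4 of 15 ATF4 branch genes, 26.7%, against 3.89% of all genes and 1 of the 18 ER chaperone genes (HERPUD1). These 4 were ATF3, CHAC1, ASNS and AARS1. The unfolded protein response element (TGACGTGG, both strands) was in HYOU1 alone among the members with a window, against 0.78% of all genes. A match of letters is not a site shown to be bound, and 33 of the 35 members had a window. The 4 sequences, from RefSeq on GRCh38.p14, run 5′ to 3′ on the gene's strand and end at the base before the start site, with the matched element in capitals (in CHAC1 it is on the opposite strand). They are HSPA5 (chr9:125241344-125241593, minus strand, element 66 bases upstream), XBP1 (chr22:28800570-28800819, minus strand, 52 bases), CHAC1 (chr15:40953221-40953470, plus strand, 209 bases) and ASNS (chr7:97872409-97872658, minus strand, 68 bases).
HSPA5: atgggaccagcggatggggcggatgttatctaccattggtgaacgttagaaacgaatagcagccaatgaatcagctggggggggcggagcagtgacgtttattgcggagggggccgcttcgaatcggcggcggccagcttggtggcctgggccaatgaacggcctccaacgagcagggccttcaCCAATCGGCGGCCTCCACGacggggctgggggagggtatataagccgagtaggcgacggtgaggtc
XBP1: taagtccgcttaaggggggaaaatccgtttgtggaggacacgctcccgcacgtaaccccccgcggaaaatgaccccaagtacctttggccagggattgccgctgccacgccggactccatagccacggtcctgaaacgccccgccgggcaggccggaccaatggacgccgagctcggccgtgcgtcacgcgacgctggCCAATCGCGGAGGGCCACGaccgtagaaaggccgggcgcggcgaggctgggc
CHAC1: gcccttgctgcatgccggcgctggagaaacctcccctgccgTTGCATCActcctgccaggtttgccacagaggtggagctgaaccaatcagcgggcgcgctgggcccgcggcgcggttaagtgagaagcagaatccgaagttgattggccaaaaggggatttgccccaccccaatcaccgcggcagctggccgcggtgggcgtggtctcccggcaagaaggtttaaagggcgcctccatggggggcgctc
ASNS: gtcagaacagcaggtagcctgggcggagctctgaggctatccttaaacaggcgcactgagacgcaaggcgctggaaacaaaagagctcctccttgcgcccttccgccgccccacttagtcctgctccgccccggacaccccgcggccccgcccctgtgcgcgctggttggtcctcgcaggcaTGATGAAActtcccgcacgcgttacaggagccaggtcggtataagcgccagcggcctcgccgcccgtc

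Several facts of the whole series bear on every value below. The replicate sets did not match label by label: over 11709 genes in none of the lists, the 2 replicates of a label correlated at r between -0.65 and 0.38, and the 2 agents of a line within a set at 0.41 to 0.85 (gene means subtracted; correlations across genes). The 12 replicate 2 arrays of clones 9 to 24 stood apart on the first principal component (43.0% of the variance, -51.5 to -23.5 against -7.9 to 35.8), and the MDV3100 replicate 1 arrays of control 1 and control 2 on the second (14.2%, -55.4 and -43.2 against -19.2 to 31.5). Averaged over agents, the replicate 2 profiles of control 2, control 3 and clone 1 matched the replicate 1 profiles of clone 1, clone 15 and clone 19 best (r = 0.75, 0.63 and 0.74) and those of their own label at -0.33, -0.09 and 0.09. No replicate 2 profile matched its own label best, with gene means taken over all 40 arrays or within the set. Within the set, control 3 matched clone 14 best (0.44), and clones 14, 15, 19 and 24 matched control 1 best (0.50, 0.54, 0.60 and 0.52, against -0.37, -0.40, -0.16 and 0.00 with their own label). The ratio of 3′ to 5′ actin signal, a sign of RNA quality, was 3.79 ± 0.53 (SD, n = 3) on DMSO and 5.11 ± 1.28 on MDV3100 in replicate 1 control arrays, with 6.59 on the MDV3100 array of control 2, and 2.59 to 3.95 on every replicate 2 array. Prostate markers were present on every array (KLK3 at 209.5 to 4548.4, EPCAM at 938.5 to 1856.9), and PTPRC, CD3E and LYZ of immune cells were at 12.3 or less in sum. Below, a pair in square brackets gives the value in replicate 1 and in replicate 2 arrays alone, and "called" means an adjusted p under 0.05 by limma with Benjamini-Hochberg adjustment over 11853 genes, with the line as the replicate. Differences are on the log2(signal + 16) scale, which understates changes of dim genes, and signals are not compared between genes.

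The first question was how these genes differ between MDV3100 and DMSO in the control lines. In the control lines CHAC1, CTH, DDIT3 and SESN2 of the ATF4 branch rose, as did the sensor pathway genes XBP1 and ATF6, by 0.28 to 0.60 on the log2 scale. These 6 of the 35 members were called, 17.1%, against 10.1% of all tested genes in either direction and 5.05% called up. A positive difference, called or not, was seen for 15 of 17 ATF4 branch genes (median 0.16) and 4 of 18 ER chaperone genes (median -0.06), with 52.1% of all tested genes positive (median 0.01). The ER branch differed between sets, with 5 of 18 positive in replicate 1 (median -0.12) and 10 of 18 in replicate 2 (median 0.02), while the ATF4 branch had 11 of 17 (median 0.08) and 15 of 17 (median 0.23). In replicate 1 arrays alone 5 members were called (CHAC1, CTH, XBP1 and ATF6 up, DNAJB11 down), against 7.85% of all genes, and in replicate 2 arrays alone 0 were, against 0.0506%, with 7 members at an unadjusted p under 0.05. Mean responses over the ATF4 branch were 0.20, 0.06 and 0.22 in controls 1, 2 and 3 in replicate 1 and 0.36, 0.11 and 0.22 in replicate 2. All 6 of these means were positive, but in control 2 of replicate 1 the median was -0.08, with 8 of 17 members up. The largest responses of that pair were those of VLDLR (1.05) and CTH (0.95). Over the ER chaperone branch the same means were -0.05, -0.04 and -0.06, then -0.01, 0.03 and -0.04.

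**Figure D1:**
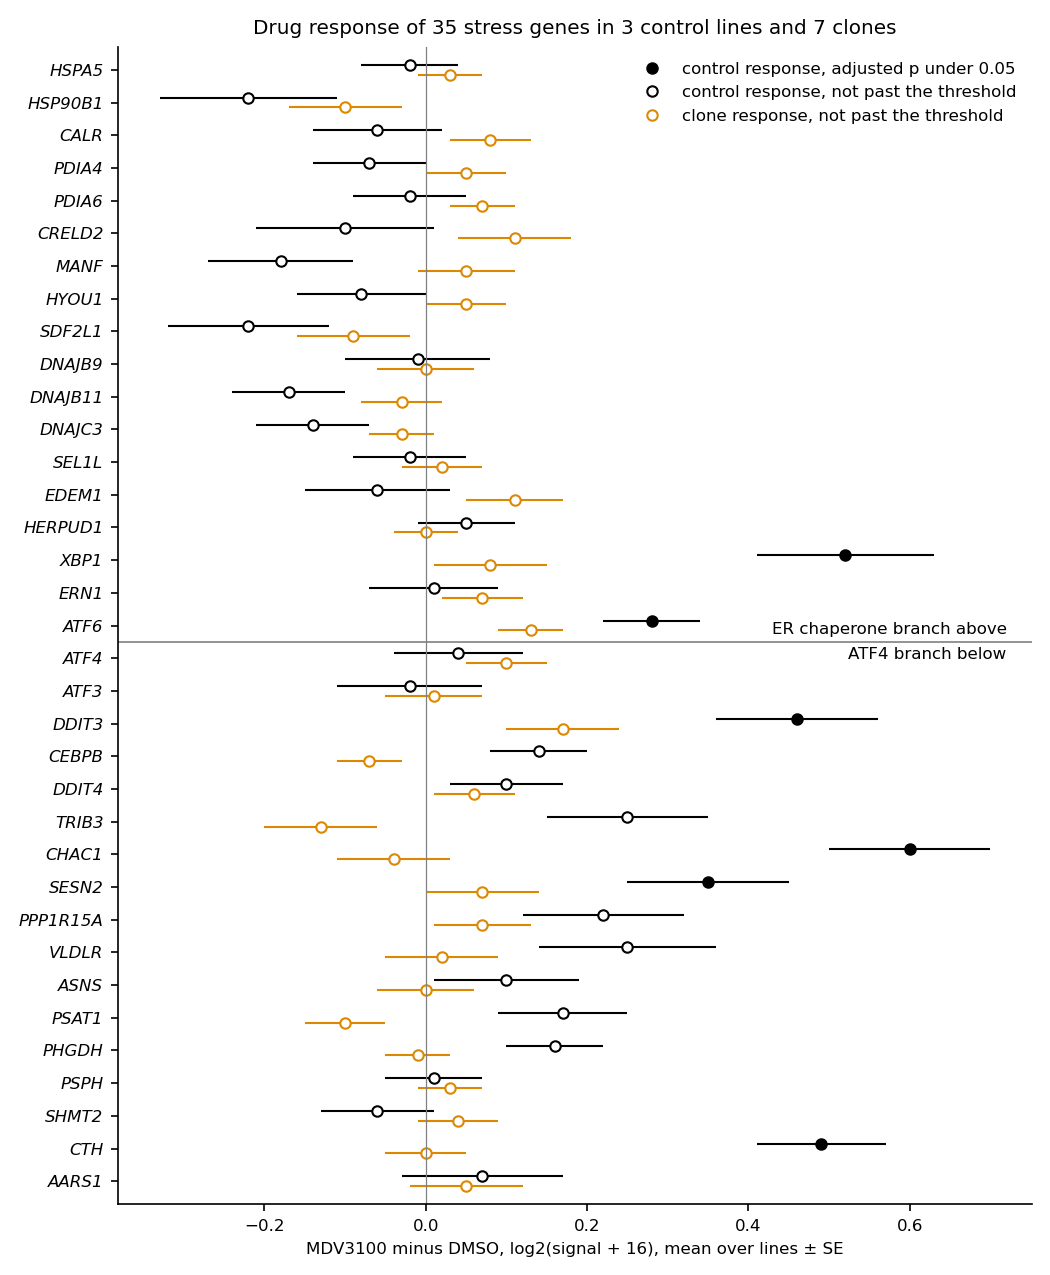
Drug response of each of the 35 members (MDV3100 minus DMSO, log2(signal + 16), mean over lines ± SE from the fit) in 3 control lines (black) and 7 clones (orange); filled circles passed the threshold. Filled circles appear only for the control lines, at XBP1, ATF6, DDIT3, CHAC1, SESN2 and CTH, all to the right of 0.

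CHAC1 encodes an enzyme that breaks down glutathione and is a late target of ATF4 and DDIT3. CHAC1 signals in control 1, control 2 and control 3 were 79.0, 34.9 and 88.5 on DMSO and 143.2, 51.2 and 143.5 on MDV3100 in replicate 1, and 117.5, 74.3 and 65.2 on DMSO and 205.8, 84.4 and 140.1 on MDV3100 in replicate 2. Every one of the 6 control pairs was higher on the drug, although control 2 on the drug stayed below the other two on DMSO in replicate 1. The difference was 0.60 ± 0.10 (SE, n = 3 lines) [0.59, 0.61], with an adjusted p of 0.00371 by limma. In the clones CHAC1 ran from 44.5 to 201.2 (median 72.8) on DMSO and from 54.9 to 242.2 (median 70.1) on MDV3100 in replicate 1, and from 41.8 to 197.1 (median 73.8) and 34.9 to 259.0 (median 46.6) in replicate 2. Clone 19 was highest of the clones in replicate 1 and clone 1 in replicate 2 on both agents, and the groups overlapped.

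CTH, the enzyme that makes cysteine from cystathionine, read 176.0, 109.9 and 127.7 on DMSO and 372.5, 226.5 and 137.3 on MDV3100 in the 3 control lines of replicate 1. Replicate 2 gave 146.1, 96.9 and 95.5, then 186.6, 103.2 and 140.5. All 6 pairs were higher on the drug, by most in controls 1 and 2 of replicate 1, and the difference was 0.49 ± 0.08 [0.69, 0.30] with an adjusted p of 0.00286 by limma. Clone signals for CTH were 87.1 to 150.4 on DMSO and 86.9 to 145.8 on MDV3100 in replicate 1 (medians 115.8 and 130.1), and 109.7 to 262.9 and 121.3 to 284.0 in replicate 2 (medians 206.4 and 189.5). Without the replicate 1 arrays of controls 1 and 2 the control difference was 0.23 and was not called (adjusted p = 0.0909 by limma). A dimmer second probe set for CTH followed the first at r = 0.33 and gave 0.15.

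DDIT3 encodes CHOP, a transcription factor of late ER stress. DDIT3 signals in the 3 control lines were 84.0, 48.9 and 74.3 on DMSO and 108.7, 61.4 and 98.1 on MDV3100 in replicate 1, and 98.1, 65.3 and 65.1, then 140.8, 93.6 and 141.2, in replicate 2. All 6 pairs were higher on the drug, by 0.46 ± 0.10 (SE, n = 3) [0.30, 0.61], with an adjusted p of 0.0125 by limma. SESN2, a leucine-binding inhibitor of growth signalling through mTORC1, read 275.4, 257.3 and 328.0 on DMSO and 435.3, 226.0 and 387.1 on MDV3100 in replicate 1, and 273.6, 254.9 and 283.0, then 468.3, 323.4 and 362.0, in replicate 2. It was higher in 5 of 6 control pairs, by 0.35 ± 0.10 [0.23, 0.47], and its adjusted p by limma of 0.0495 lay at the threshold; the call was lost under 18 of 22 alternatives.

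XBP1 and ATF6 had the largest differences of the ER chaperone branch, and the XBP1 call rested on 2 arrays. XBP1 in controls 1, 2 and 3 read 282.3, 280.0 and 275.3 on DMSO and 842.9, 838.1 and 251.8 on MDV3100 in replicate 1, but 282.1, 243.3 and 241.4, then 252.6, 248.3 and 304.0, in replicate 2. Only the MDV3100 replicate 1 arrays of controls 1 and 2 were high among the 12 control arrays. The difference was 0.52 ± 0.11 (SE, n = 3) [0.98, 0.06] with an adjusted p of 0.0116 by limma, and without the replicate 1 arrays of those lines it was -0.01. Among the clones XBP1 was high on the 8 replicate 2 arrays of clones 14, 15, 19 and 24, on either agent (726.7 to 864.3), and low on the other 20 clone arrays. Over all 40 arrays it took values from 217.1 to 457.8 on 30 arrays and from 726.7 to 864.3 on 10, with none between.

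The same 10 arrays gave the 10 highest signals of CTH and VLDLR, a lipoprotein receptor raised by ATF4, and the 10 lowest of PDIA4, a protein disulfide isomerase, and SHMT2, which makes glycine in mitochondria. Of all tested genes 6.29% separated these 10 arrays from the other 30 without overlap, and the correlation of XBP1 with 169 genes outside the lists was over 0.9 in size. These arrays are no group of the study, and they are the 2 control arrays that stood apart and 8 of the 12 clone arrays that did. The 8 clone arrays are every replicate 2 array of clones 14, 15, 19 and 24, on both agents. In replicate 1 the same clone labels had XBP1 at 243.0 to 341.1 on both agents. What set these 8 arrays apart was not tested. Both control arrays are MDV3100 arrays of replicate 1, and for them drug and array cannot be told apart. The part of array quality was not tested. The actin ratios on the MDV3100 replicate 1 arrays of controls 1 and 2 were 4.26 and 6.59, and on the 8 clone arrays 2.59 to 3.48. Outside these 10 arrays, the ratio was 5.34 on the MDV3100 replicate 1 array of clone 15.

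ATF6, the sensor that is cut to an active factor, read 183.2, 152.4 and 159.6 on DMSO and 292.1, 208.3 and 201.6 on MDV3100 in the replicate 1 controls, and 155.3, 165.1 and 188.4, then 175.5, 173.1 and 207.6, in replicate 2. All 6 control pairs and 12 of 14 clone pairs were higher on the drug. The control difference was 0.28 ± 0.06 (SE, n = 3) [0.45, 0.12], called at an adjusted p of 0.0144 by limma, and the clone difference was 0.13 ± 0.04 (SE, n = 7) [0.17, 0.10], not called at 0.156. The other 3 probe sets of ATF6 gave 0.15, 0.19 and 0.21 in control lines and -0.09, -0.01 and 0.08 in clones. ERN1, which splices XBP1, was 611.9, 531.4 and 596.8 on DMSO and 688.5, 735.4 and 535.1 on MDV3100 in replicate 1 controls, then 504.8, 627.5 and 498.0 and 471.2, 509.3 and 498.2 in replicate 2. Its difference was 0.01 ± 0.08 [0.16, -0.13].

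**Figure D2:**
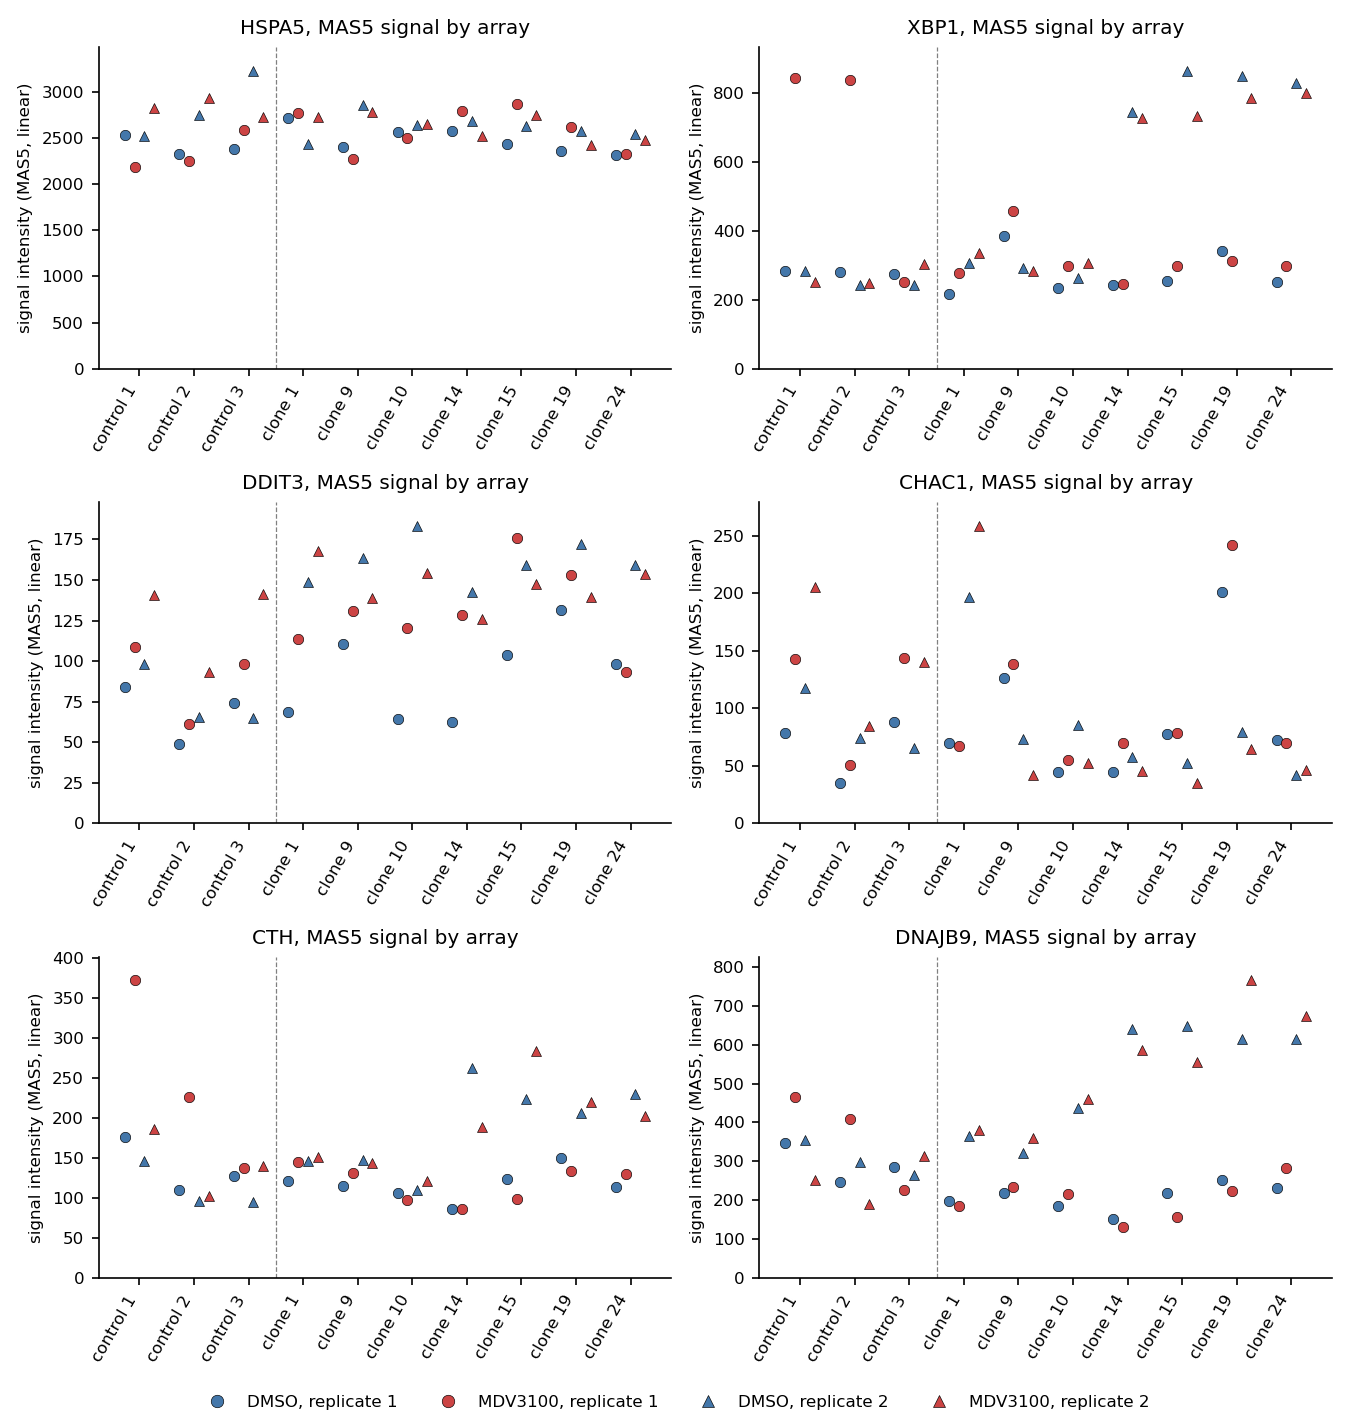
MAS5 signal (linear axis from 0) on each of the 40 arrays for 6 members, by line, with circles for replicate 1, triangles for replicate 2, blue for DMSO and red for MDV3100; the dashed line divides control lines from clones. HSPA5 stays between 2178.5 and 3225.2 everywhere, XBP1 falls into a low and a high range, and DNAJB9 is at 322.5 or more on every replicate 2 clone array.

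No chaperone was called in the control lines with both sets averaged. HSPA5 encodes BiP, the main chaperone of the ER. HSPA5 signals in controls 1, 2 and 3 were 2527.2, 2328.8 and 2376.8 on DMSO and 2178.5, 2248.1 and 2583.8 on MDV3100 in replicate 1, and 2524.9, 2747.5 and 3225.2, then 2827.5, 2933.2 and 2724.7, in replicate 2. The direction split 3 to 3 over the control pairs, and the difference was -0.02 ± 0.06 (SE, n = 3) [-0.05, 0.00]. In the clones HSPA5 ran from 2311.5 to 2715.7 on DMSO and 2269.9 to 2869.5 on MDV3100 in replicate 1, and from 2437.7 to 2860.6 and 2418.0 to 2783.6 in replicate 2. HSP90B1, the ER member of the HSP90 family, read 2172.0, 2041.5 and 2077.8 on DMSO and 1546.2, 1750.7 and 1611.4 on MDV3100 in replicate 1 controls, and 2391.4, 2475.0 and 1582.4, then 1526.2, 2321.2 and 2213.6, in replicate 2. It was lower in 5 of 6 control pairs, by -0.22 ± 0.11 [-0.36, -0.08], which was not called (adjusted p = 0.221 by limma).

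MANF, a secreted factor held by HSPA5, read 2371.5, 2742.0 and 2565.4 on DMSO and 1631.0, 1549.3 and 2726.6 on MDV3100 in replicate 1 controls, and 3225.1, 3016.2 and 3943.5, then 3823.6, 3823.5 and 2962.4, in replicate 2. The 2 lowest values were again the MDV3100 replicate 1 arrays of controls 1 and 2, and the difference was -0.18 ± 0.09 [-0.42, 0.06]. SDF2L1, a partner of HSPA5 and its J-domain proteins, gave 171.1, 182.6 and 168.7 on DMSO and 125.2, 144.8 and 125.3 on MDV3100, then 261.1, 229.7 and 187.5 and 195.7, 291.1 and 167.6, a difference of -0.22 ± 0.10 [-0.37, -0.07] that was not called (adjusted p = 0.193 by limma). DNAJB11, an ER J-domain co-chaperone, was 893.1, 909.8 and 927.6 on DMSO and 521.8, 645.1 and 892.1 on MDV3100 in replicate 1. It was called down in that set alone (-0.43) and was 0.09 in replicate 2. Of the other folding genes, CALR, PDIA4, PDIA6, CRELD2, HYOU1, DNAJB9 and DNAJC3 had control differences between -0.14 and -0.01, and the degradation genes SEL1L, EDEM1 and HERPUD1 between -0.06 and 0.05, none called.

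Other members of the ATF4 branch had positive control differences that were not called. ATF4 itself, whose protein level is set mainly by translation, read 2551.1, 2681.3 and 2539.3 on DMSO and 2106.3, 2427.7 and 3058.6 on MDV3100 in replicate 1 controls, and 3211.8, 2837.7 and 2895.5, then 4069.7, 2869.1 and 3000.1, in replicate 2, a difference of 0.04 ± 0.08 [-0.05, 0.14]. TRIB3, a pseudokinase induced by ATF4 and DDIT3, was 210.0, 149.8 and 218.5 on DMSO and 309.7, 154.3 and 257.5 on MDV3100, then 219.7, 171.1 and 130.5 and 254.8, 153.9 and 209.9. It was higher in 5 of 6 pairs, by 0.25 ± 0.10 [0.26, 0.23], with an adjusted p of 0.139 by limma. ASNS, asparagine synthetase, gave 1742.8, 1995.9 and 2128.2 on DMSO and 1545.0, 1441.5 and 2841.7 on MDV3100, then 2219.1, 1554.4 and 2088.6 and 3238.8, 2069.1 and 1894.6. Its pairs split 3 to 3 and the difference was 0.10 ± 0.09 [-0.07, 0.27].

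Within serine synthesis, PSAT1 (the aminotransferase of the pathway) read 1531.3, 1208.4 and 1446.5 on DMSO and 1684.0, 1644.3 and 1372.5 on MDV3100 in replicate 1 controls, and 1229.1, 1190.8 and 1250.1, then 1532.5, 1229.2 and 1400.5, in replicate 2. It was higher in 5 of 6 pairs, by 0.17 ± 0.08 [0.17, 0.17], and PHGDH, the first enzyme, by 0.16 ± 0.06 [0.08, 0.23]; neither was called (adjusted p = 0.217 and 0.139 by limma). PSPH, the last enzyme, had 0.01 ± 0.06, and SHMT2 -0.06 ± 0.07. Their other probe sets differed, at 0.43 and 0.17 for PSPH and 0.21 and 0.12 for SHMT2, and that of PSAT1 gave -0.08. AARS1, which charges tRNA with alanine, had 0.07 ± 0.10 [-0.11, 0.24], DDIT4, an inhibitor of mTORC1, 0.10 ± 0.07, CEBPB, a partner of ATF4, 0.14 ± 0.06, VLDLR 0.25 ± 0.11 [0.58, -0.07] and ATF3, a repressor downstream of ATF4, -0.02 ± 0.09. PPP1R15A (GADD34), which restores eIF2 alpha, had signals of only 6.6 to 25.1, at the filter's edge of 12.1, and a difference of 0.22 ± 0.10.

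Which arrays a call rested on differed between the 6 members. Leaving out the replicate 1 arrays of controls 1 and 2 left 4 members called, against 6.66% of all genes: DDIT3 (0.51), CHAC1 (0.55), SESN2 (0.45) and ASNS (0.36), while XBP1, ATF6 and CTH were lost. Leaving out control 1 left 0 members called, with adjusted p by limma of 0.0626 for CHAC1, 0.0534 for CTH, 0.0763 for DDIT3, 0.154 for ATF6, 0.137 for XBP1 and 0.443 for SESN2; leaving out control 2 also ended the XBP1 call (0.0942) and leaving out control 3 those of DDIT3 (0.0731) and SESN2 (0.0864). For these fits without 1 control line the share of all genes is not given. With arrays as replicates and the line as a block no gene of the 11853 was called (685 at an unadjusted p under 0.05). That fit had no term for the replicate set and did not pair the agents within a set. Differences between the sets therefore counted as spread, and it cannot tell which calls hold.

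The same comparison in the resistant clones called none of these genes. By limma 0 members passed, against 0.81% of all genes, with 2 members (ATF6 and DDIT3) at an unadjusted p under 0.05. The ER chaperone branch had 14 of 18 differences above 0 (median 0.05) and the ATF4 branch 10 of 17 (median 0.02), with 50% of all genes above 0. In replicate 1 alone these were 14 of 18 (median 0.06) and 12 of 17 (median 0.09). In replicate 2 alone they were 8 of 18 (median -0.01) and 4 of 17 (median -0.01). Mean responses over the ATF4 branch ran from -0.05 to 0.23 in replicate 1, above 0 in 5 of 7 clones, and from -0.16 to 0.09 in replicate 2, above 0 in 1 of 7. That 1 was clone 1.

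**Figure D3:**
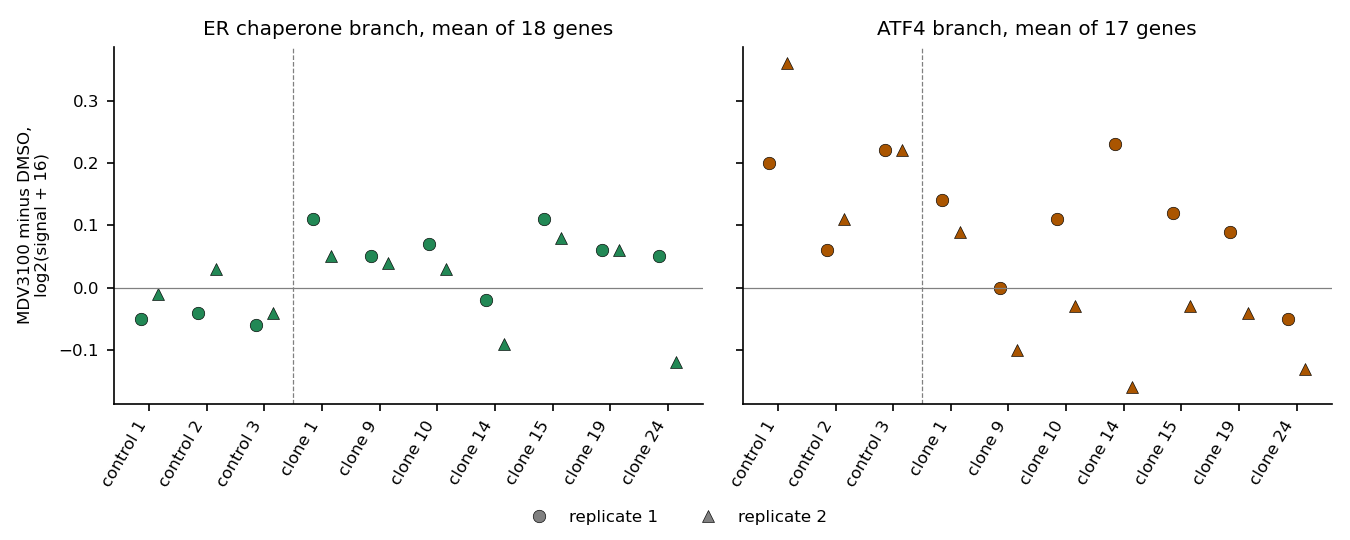
Mean response (MDV3100 minus DMSO, log2(signal + 16)) over the 18 ER chaperone genes and the 17 ATF4 branch genes in each line, with circles for replicate 1 and triangles for replicate 2; the dashed line divides control lines from clones. For the ATF4 branch all 6 control points lie above 0, from 0.06 to 0.36, and 6 of 14 clone points do; the ER branch stays between -0.12 and 0.11.

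DDIT3 had the largest clone difference of the ATF4 branch, and it was seen in replicate 1 alone. DDIT3 in clones 1, 9, 10, 14, 15, 19 and 24 ran from 62.2 to 131.6 (median 98.1) on DMSO and from 93.4 to 175.9 (median 128.2) on MDV3100 in replicate 1, but from 142.5 to 183.5 (median 159.5) and 126.2 to 167.9 (median 147.3) in replicate 2. The ranges overlapped in both sets, lower on DMSO in replicate 1 and higher on DMSO in replicate 2. The difference was 0.17 ± 0.07 (SE, n = 7) [0.47, -0.12] with an adjusted p of 0.231 by limma, and DDIT3 was the only member called in replicate 1 alone (adjusted p = 0.0408), against 1.41% of all genes. Without the replicate 2 arrays of clones 9 to 24 it was 0.44 (adjusted p = 0.024 by limma) and again the 1 member called, against 5.85% of all genes.

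TRIB3 in the clones ran from 152.3 to 342.0 (median 191.6) on DMSO and 131.7 to 299.0 (median 177.1) on MDV3100 in replicate 1, and from 234.1 to 285.7 (median 256.5) and 177.0 to 254.7 (median 234.7) in replicate 2, a difference of -0.13 ± 0.07 [-0.06, -0.20]. PSAT1 ran from 1087.2 to 1808.3 (median 1314.3) and 1007.1 to 1788.3 (median 1227.1) in replicate 1, and from 1117.4 to 1706.6 (median 1514.2) and 1014.0 to 1541.6 (median 1414.3) in replicate 2, a difference of -0.10 ± 0.05 [-0.05, -0.15]. ATF4 ran from 2447.3 to 3109.8 and then 2851.8 to 4047.3 in replicate 1, and from 2481.9 to 3261.2 and 2461.9 to 3469.0 in replicate 2, a difference of 0.10 ± 0.05 [0.19, 0.00]. For none of these did the DMSO and MDV3100 ranges part. On the ER side EDEM1, which takes misfolded glycoproteins to degradation, ran from 658.2 to 922.5 on DMSO and 632.2 to 1126.2 on MDV3100 in replicate 1 and from 533.1 to 740.8 and 630.3 to 923.6 in replicate 2 (difference 0.11 ± 0.06). CRELD2, a secreted ER stress protein, ran from 337.7 to 411.5 and 360.5 to 571.6, then 249.1 to 418.7 and 237.4 to 407.0 (difference 0.11 ± 0.07 [0.25, -0.03]).

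The difference between the clone and control responses, tested directly, was largest for CHAC1 and CTH. Both were called up in the control lines and, averaged over sets, were near 0 in the clones. For CHAC1 that average joined unlike sets, with clone pairs at -0.05 to 0.50 in replicate 1 and -0.62 to 0.37 in replicate 2. CHAC1 had a difference of responses of -0.64 ± 0.13 (SE, 7 clones minus 3 control lines) [-0.44, -0.84], adjusted p = 0.0354 by limma, and CTH -0.49 ± 0.10 [-0.68, -0.31], adjusted p = 0.0368. These 2 were the members called, against 0.717% of all genes. Averaged over sets, the CHAC1 responses were 0.60 ± 0.28 in the 3 control lines and -0.04 ± 0.16 in the 7 clones (SD over lines), and those of CTH 0.49 ± 0.19 and 0.00 ± 0.11. The line responses did not overlap for 5 members (CHAC1, CTH, CEBPB and PHGDH lower in clones, MANF higher), 14.3%, against 5.8% of all genes. The ATF4 branch had 13 of 17 differences below 0 (median -0.17) and the ER branch 15 of 18 above 0 (median 0.11), with 49.3% of all genes above 0. These medians were 0.02 and 0.14 in replicate 1 alone and -0.32 and -0.03 in replicate 2 alone.

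Both calls were near the threshold. Without the replicate 1 arrays of controls 1 and 2 the CTH difference was -0.23 (adjusted p = 0.375 by limma) and the CHAC1 difference -0.60 (0.187), neither called. With all arrays they were -0.49 and -0.64. The fit without those arrays called only 0.00844% of all genes, so a missing call there does not tell whether a difference rested on them. With the replicate number as a block, a fit that counted each line once per set, 0 members were called, against 0.169% of all genes. There 8 members were at an unadjusted p under 0.05 (limma adjusted p of 0.0529 for CHAC1 and 0.105 for CTH). Leaving out control 1 or clone 9, 10, 15, 19 or 24 left 0 members called and leaving out control 2 or clone 14 left 1. The shares of all genes in those fits are not given. XBP1 had -0.44 ± 0.13 [-0.80, -0.08] and TRIB3 -0.37 ± 0.12 [-0.32, -0.43], not called (adjusted p = 0.139 and 0.158 by limma); DDIT3 had -0.29 ± 0.12 [0.17, -0.74] and MANF 0.24 ± 0.11 [0.51, -0.04].

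The next question was whether clones and control lines differ before the drug. In DMSO with both sets averaged 0 members were called by limma, against 0.118% of all genes, with 10 members at an unadjusted p under 0.05. The 3 nearest the threshold were HYOU1, DDIT3 and ATF3 (adjusted p of 0.0516, 0.059 and 0.0653). In replicate 2 arrays alone 4 members were called, 11.4%, against 10.3% of all genes: DDIT3, ATF3 and TRIB3 higher and HYOU1 lower in clones. With the replicate number as a block HYOU1 and DDIT3 were called (0.0276 and 0.035), against 1.8% of all genes. That fit counted the 2 sets of a line as separate replicates, so these 2 calls do not have the line as the replicate. In the main fit, leaving out clone 1 gave 4 calls. The share of all genes called there is not given, so these 4 cannot be set against it.

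DDIT3 on DMSO was 84.0, 48.9 and 74.3 in the control lines and 62.2 to 131.6 in the clones of replicate 1, and 98.1, 65.3 and 65.1 against 142.5 to 183.5 in replicate 2. The groups overlapped in replicate 1 and were apart in replicate 2, a difference of 0.64 ± 0.14 (SE, 7 clones minus 3 control lines) [0.32, 0.96]. ATF3 was 196.9, 118.7 and 195.5 against 130.7 to 267.6 (median 222.5) in replicate 1 and 222.9, 227.7 and 196.4 against 260.8 to 461.2 (median 389.8) in replicate 2, again apart in the second set only, by 0.48 ± 0.11 [0.25, 0.71]. TRIB3 behaved likewise, with replicate 2 clones at 234.1 to 285.7 and controls at 219.7, 171.1 and 130.5, a difference of 0.33 ± 0.14 [0.11, 0.56]. HYOU1, a large ER chaperone of the HSP70 family, was 1385.2, 1607.9 and 1451.1 against 1085.0 to 1399.9 (median 1298.8) in replicate 1 and 1408.0, 1381.6 and 1630.6 against 869.9 to 1110.6 (median 934.9) in replicate 2. It was lower in clones by -0.40 ± 0.07 [-0.21, -0.59], with overlap in replicate 1 and none in replicate 2.

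XBP1 on DMSO differed by 0.48 ± 0.22 [-0.04, 1.0], carried by clones 14, 15, 19 and 24 of replicate 2. DDIT4, from 2968.0 to 3274.8 in clones and 3179.3, 3083.2 and 3191.8 in controls of replicate 1, was 1869.7 to 3067.1 (median 2144.1) against 3410.1, 2974.5 and 3374.6 in replicate 2, a difference of -0.24 ± 0.09 [0.02, -0.50]. ERN1 was 306.7 to 646.2 (median 474.4) in clones of replicate 1 and 379.7 to 562.2 (median 472.2) in replicate 2, overlapping the controls given above in both sets (-0.25 ± 0.15). DNAJC3, a co-chaperone that also restrains PERK, was 1586.2, 1766.0 and 1589.4 in controls and 948.2 to 1495.3 in clones of replicate 1 without overlap, but 1486.8, 1200.3 and 1630.5 against 1388.0 to 1508.1 in replicate 2 (-0.21 ± 0.09 [-0.45, 0.03]). In all, the lines did not overlap for 2 members in replicate 1 (DNAJC3 and PPP1R15A), against 12.1% of all genes, and for 7 in replicate 2 (HYOU1 and AARS1 lower, HERPUD1, ATF3, DDIT3, TRIB3 and PSPH higher), of 35 members, against 13.1% of all genes. No member was in both sets.

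**Figure D4:**
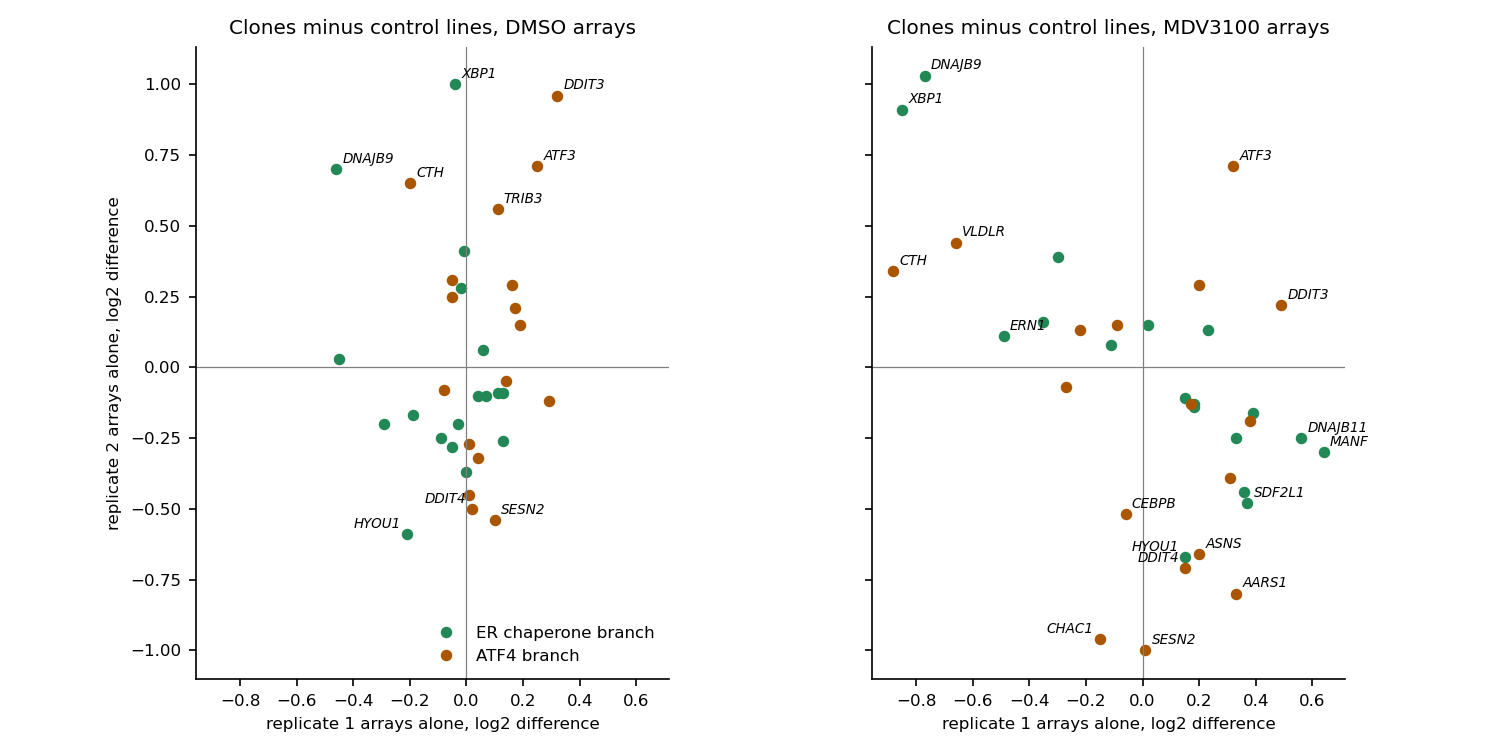
Clones minus control lines (log2 difference of mean levels) for the 35 members, with replicate 1 arrays alone on the x axis and replicate 2 arrays alone on the y axis, on DMSO (left) and MDV3100 (right); members past 0.45 in either set are named. On MDV3100, XBP1, DNAJB9, CTH and VLDLR lie at the upper left, below 0 in replicate 1 and above 0 in replicate 2.

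Under MDV3100, ATF3 alone was called with both sets averaged, against 8.94% of all genes. ATF3 read 171.9, 98.5 and 192.8 in controls and 135.5 to 272.7 (median 196.4) in clones of replicate 1, and 237.3, 243.4 and 214.7 against 239.4 to 507.6 (median 387.5) in replicate 2. The groups overlapped in both sets, in replicate 2 through clone 1 alone, and the difference was 0.51 ± 0.14 (SE) [0.32, 0.71], adjusted p = 0.0399 by limma. With the replicate number as a block 0 members were called, against 3.72% of all genes, with 4 members at an unadjusted p under 0.05. Leaving out any control line or clone 9, 10, 15 or 19 also left 0, while leaving out clone 1 gave 4 calls and leaving out clone 24 gave 2. Shares of all genes are not given for the fits without 1 line, so their counts cannot be set against them. Without the replicate 2 arrays of clones 9 to 24 the ATF3 difference was 0.02.

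Each set alone called other members under MDV3100. Replicate 1 called 3 (DNAJB11 0.56, VLDLR -0.66 and CTH -0.88), 8.57% against 9.03% of all genes, and replicate 2 called 6 (DNAJB9 1.03, ATF3 0.71, HYOU1 -0.67, DDIT4 -0.71, AARS1 -0.80 and SESN2 -1.0), 17.1% against 19.6%. Both shares were near those of all genes. Lines did not overlap for 3 members in replicate 1 (PDIA6, SDF2L1 and DNAJB11, higher in clones), against 11.3% of all genes, and for 4 in replicate 2 (PDIA6, HYOU1 and AARS1 lower, DNAJB9 higher), against 14.9%. SESN2 under MDV3100 was 435.3, 226.0 and 387.1 in controls and 259.7 to 490.6 (median 328.4) in clones of replicate 1, and 468.3, 323.4 and 362.0 against 124.3 to 419.9 (median 165.6) in replicate 2. Clone 1, at 419.9, was the only replicate 2 clone inside the control range, and the difference over both sets was -0.50 ± 0.19 [0.01, -1.0], not called (adjusted p = 0.114 by limma). CHAC1 had -0.56 ± 0.31 [-0.15, -0.96] and HYOU1 -0.26 ± 0.10 [0.15, -0.67].

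CEBPB under MDV3100 was 926.2, 679.2 and 940.9 in controls and 638.2 to 1099.1 in clones of replicate 1, and 1145.5, 754.1 and 912.1 against 469.3 to 1073.8 (median 562.6) in replicate 2 (-0.29 ± 0.15). MANF was 2172.7 to 3854.4 (median 3087.8) in clones of replicate 1, above controls 1 and 2 and around control 3, and 2308.0 to 3746.2 (median 2692.8) in replicate 2 (0.17 ± 0.11 [0.64, -0.30]). Beside these level differences, VIM, a mesenchymal gene high in androgen receptor-negative prostate lines, was higher in clones under the drug (1.67 ± 0.38, adjusted p = 0.0257 by limma), and the summed signal of the 6 markers of such lines was 62.9 to 157.3 on control arrays and 57.3 to 757.8 on clone arrays. CD44, CAV1 and AXL of that list were at 20.8 or less on every array. Of 5 fibroblast markers 3 were tested, and only COL1A1 was called, lower in clones under the drug (-0.61). The median of the 3 was -0.08 and the highest 0.08. VWF, the only 1 of 4 endothelial markers that was tested, was lower on the drug in control lines (-0.43). The part of these in the results was not tested.

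The replicate sets differed on DMSO in 10 called members of 35, 28.6%, against 29.6% of all tested genes, a share near that of all genes. DNAJB9, a J-domain co-chaperone that holds ERN1 inactive, had the largest shift. DNAJB9 on DMSO read 347.0, 247.4 and 286.7 in controls and 152.0 to 251.4 (median 219.6) in clones of replicate 1, and 355.9, 298.7 and 264.0 against 322.5 to 647.9 (median 613.7) in replicate 2. On MDV3100 it read 465.9, 409.5 and 227.4 against 130.8 to 282.1 (median 217.0) in replicate 1 and 251.8, 191.5 and 314.5 against 361.0 to 765.2 (median 556.3) in replicate 2. On DMSO replicate 2 was higher in 9 of 10 lines and by most in clones 14, 15, 19 and 24; the shift was 0.87 ± 0.19 (SE, n = 10 lines) with an adjusted p of 0.00821 by limma, and 2 further probe sets followed the first at r = 0.96 and 0.97. ATF3 (0.67 ± 0.16), DDIT3 (0.57 ± 0.13), PSPH (0.44 ± 0.08), HERPUD1 (0.38 ± 0.09) and PPP1R15A (0.30 ± 0.08) were also called higher. SESN2 (-0.52 ± 0.17), DDIT4 (-0.33 ± 0.11), HYOU1 (-0.27 ± 0.09) and EDEM1 (-0.24 ± 0.06) were called lower. Some of these shifts lay mainly in the clones. Clone means of SESN2, DDIT4 and HYOU1 went from 311, 3206 and 1277 to 192, 2318 and 978. Control means went from 287, 3151 and 1481 to 270, 3253 and 1473. DDIT3 went from 91.2 to 161 in clones and from 69.1 to 76.2 in controls. EDEM1 fell in both groups (779 to 656 and 888 to 740).

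HERPUD1, an ER membrane adaptor of protein degradation, was 1256.8, 1034.2 and 1281.3 in controls and 929.1 to 1536.5 (median 1136.6) in clones on DMSO in replicate 1, and 1433.5, 1336.7 and 1247.8 against 1535.0 to 1799.0 (median 1607.7) in replicate 2. PSPH was 914.0, 795.8 and 898.1 and 759.0 to 1136.2 (median 979.1), then 1046.9, 1127.5 and 1154.8 and 1204.1 to 1554.1 (median 1357.1). For both, replicate 2 clones lay above every replicate 2 control on DMSO. SESN2 was 274.3 to 434.2 (median 285.8) in replicate 1 clones and 129.9 to 224.0 in replicate 2 clones other than clone 1, which read 365.3.

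ATF6 was 130.9 to 197.7 (median 158.4) in replicate 1 clones and 148.4 to 324.2 (median 274.8) in replicate 2 clones, and XBP1 differed by 0.61 ± 0.24; neither passed the threshold (adjusted p = 0.122 and 0.0705 by limma). The drug response of the clones differed between the sets in 0 members, against 0.0422% of all genes, with 6 members at an unadjusted p under 0.05. All but 2 of the 17 ATF4 branch genes had a lower clone response in replicate 2, with a median of -0.13. DDIT3 had -0.59 ± 0.13 (SE, n = 7 clones; adjusted p = 0.104 by limma), CHAC1 -0.38 ± 0.15, AARS1 -0.32 ± 0.10 and ASNS -0.23 ± 0.09. AARS1 in the clones was 1434.6 to 2129.1 on DMSO and 1608.3 to 2781.1 on MDV3100 in replicate 1 and 1260.5 to 2038.1 and 1094.9 to 2118.4 in replicate 2. ASNS was 1500.5 to 2619.8 and 1470.1 to 3225.7, then 1175.6 to 2399.0 and 1050.9 to 2605.2.

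Other genes of the same pathways were measured beside the 35. Of 29 other ER genes, 9 had a positive control response (median -0.04), with EIF2AK3, which encodes PERK (0.44), and ERO1B, an ER oxidase (0.34), called up and CREB3L4, an androgen-responsive ER transcription factor (-0.47), and ERO1A, the paralog of ERO1B (-0.42), called down. The highest response among the 29 was 0.81 in replicate 1 alone but 0.21 in replicate 2 alone, and the lowest were -0.50 and -0.53. In replicate 2 alone 0 of the 29 were called, against 0.0506% of all genes. Of 34 other ATF4 pathway genes, 26 were positive (median 0.07) and SLC7A5, the large neutral amino acid transporter, was called up by 0.83 ± 0.12 (adjusted p = 0.00112 by limma). The excess of positive responses was in replicate 2, with 29 of 34 (median 0.16) against 54.6% of all genes. In replicate 1 it was 16 of 34 (median -0.01), against 48.9%. In the clones none of these 63 genes was called, with 3 ATF4 pathway genes and 0 ER genes at an unadjusted p under 0.05 by limma. CREB3L4 was the 1 gene of both lists called for the difference of responses (0.41), and SLC7A5 lay at the threshold (-0.66, adjusted p = 0.0503 by limma). Between the sets on DMSO, 5 of the other ER genes were called up (SEC61B 0.49, SELENOS 0.40 and CREB3L4 0.33 the largest) and 3 down (MBTPS1 -0.46, OS9 -0.40, ERO1B -0.31), and 1 of the ATF4 pathway genes up (EIF2S1 0.24) and 3 down (EPRS1 -0.39, MTHFD2 -0.35, YARS1 -0.28).

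Under MDV3100 the levels of CREB3L4 (0.69), SEC61B (0.52) and SELENOS (0.35) were higher and that of ERO1B (-0.38) was lower in clones, and 0 of the ATF4 pathway genes were called (5 at an unadjusted p under 0.05 by limma). Among 9 cytosolic heat shock genes HSPA4L (0.26), and among 8 immediate early genes EGR1 (0.40), were called up in control lines, EGR1 was also called in clones (0.32), and KLF6 was higher in clones under the drug (0.68). All 10 proliferation genes listed had a negative control response (median -0.37, 5 called), and all 10 a negative clone response (median -0.20, 1 called); the part of growth in the members' values was not tested. As a check of the drug, KLK2 (-1.50), SLC45A3 (-1.42), TMPRSS2 (-1.05), PMEPA1 (-0.92) and FKBP5 (-0.65), which androgen induces, were called down in control lines and 0 of the 7 such genes was in clones, with 3 at an unadjusted p under 0.05 by limma.

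The members of a branch did not move as 1 unit over the 40 arrays. The median pairwise correlation was -0.03 over 153 pairs of ER chaperone genes, 0.18 over 136 pairs of ATF4 branch genes and 0.02 over 306 pairs across branches; arrays of 1 line and set share their source, and no test was made. The pairs at 0.89 or more were PDIA4 and SHMT2 (r = 0.93), SESN2 and DDIT4 (0.91), ASNS and SHMT2 (0.91), XBP1 and VLDLR (0.89) and HYOU1 and DDIT4 (0.89). Within the ER branch PDIA4 and HYOU1 were closest (0.88), XBP1 was closest to ATF6 (0.87), and in the ATF4 branch CHAC1 was closest to CEBPB (0.85). XBP1 ran opposite to PDIA4 (-0.88), and HSPA5 followed MANF (0.82). The 10 arrays with the highest XBP1 signals also had the highest VLDLR and the lowest PDIA4 and SHMT2 signals. The part of that separation in these correlations was not tested. For some members a second probe set did not follow the one used: r was 0.02 and -0.06 for CALR, -0.27 for HSPA5, -0.16, -0.16 and 0.00 for SEL1L, 0.01 to 0.33 for ATF6, 0.12 for PSAT1 and 0.02 and -0.48 for PSPH.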

How the data were processed

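RNA from 10 LNCaP lines was measured on 40 Affymetrix arrays. The deposited values are linear MAS5 signal intensities, per the submitters' processing notes, whose version is not given in the sources used here; the trimmed mean (2% at each end) was 150 on every array and array medians were 10.7 to 18.4. Precision is limited by how many arrays there were. Of 54675 probe sets, 41097 were paired with 1 gene, 1801 with several and 11777 with none. The brightest single-gene probe set stood for a gene. Values were log2(signal + 16), probe sets below the median of all means (signal 12.1) were left out of tests, and 11853 genes were tested with limma 3.58.1 (R 4.3.3), using lmFit, eBayes and Benjamini-Hochberg adjustment. The line was the replicate, as the mean of both replicate numbers.

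Named members were HSPA5, XBP1, ATF4, DDIT3, ASNS and TRIB3, called members (up to 6 per comparison by size) and the 4 largest differences of each branch per comparison. For the other pathway lists, up to 3 called genes per direction were named. The members and lists, and the marker lists, were chosen with earlier results of these data known. DMSO and MDV3100 arrays of the same line and replicate number deviated together (r = 0.59 to 0.90 in all 10 lines). A fit with the number as a block was therefore run beside the main one. It had no term for the line, so each line counted once per replicate number. Scripts were tested on simulated data. Other pseudocounts, filters, normalizations, gene summaries and left-out arrays were tried as alternatives.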

Additional observations from a re-analysis of the deposited data

Results flagged for a closer look

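The response of TRIB3 to MDV3100 in clone 1 was 0.21, apart from the other clones at -0.26 to -0.11; of 70 groups of this kind screened, 1 stood out in this way, and chance gives about 1 in 20. The response differed between clones and control lines, by a test of the difference itself, for CHAC1 (-0.64) and CTH (-0.49). With the replicate number as a block neither was called (limma adjusted p of 0.0529 and 0.105), and the calls were lost under 16 and 20 of 22 alternatives.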

How the results depend on the processing

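Alternatives that leave out whole sets of arrays that stood apart were chosen after seeing the data. Of the summary values recomputed, 359 stayed within their limits and 61 moved; of the values of named genes, 240 kept direction and call, 116 kept direction and lost the call, and 1 reversed. The cause was not tested. In control lines 0 members were called with arrays as replicates and the line as a block, a fit that did not pair the agents within a set. Without the replicate 2 arrays of clones 9 to 24, 3 were called, against 4.26% of all genes. Without the replicate 1 arrays of controls 1 and 2 the ER branch median was 0.02 and XBP1 was -0.01. In clones, without the replicate 2 arrays of clones 9 to 24, 1 member was called, against 5.85% of all genes, and the ATF4 branch median was 0.09. For the difference of responses 0 members were called with a pseudocount of 1, no filter, an intensity trend, the replicate block or arrays as replicates. Of all genes those fits called 0.101%, 0.131%, 0.27%, 0.169% and 0%. With either set of arrays that stood apart left out 0 members were also called, against 0.00844% (controls 1 and 2) and 0% (clones 9 to 24). With so few genes called, these fits cannot tell whether the members' differences hold. Quantile normalization and the mean of all probe sets each called 1 member, against 0.717% and 0.456% of all genes. The fit without the replicate 2 arrays of control 2, control 3 and clone 1 also called 1, against 1.13%. The ER branch median of the difference was 0.01 without the replicate 1 arrays of controls 1 and 2. The CHAC1 call for that difference was lost under 16 of 22 alternatives and that of CTH under 20. On DMSO 1 member was called with quantile normalization or an intensity trend, against 0.287% and 0.624% of all genes. The mean of all probe sets and the replicate block each called 2, against 1.38% and 1.8%. Without the replicate 2 arrays of control 2, control 3 and clone 1 it was 3, against 5.9%. Under MDV3100 0 were called with a pseudocount of 1, no filter or the replicate block, against 7.55%, 4.25% and 3.72% of all genes. With either set of arrays that stood apart left out 0 were also called, against 0.354% (controls 1 and 2) and 0.0506% (clones 9 to 24). The replicate block, which counted each line once per set, changed no call in control lines or clones.

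Leaving out each line or replicate set in turn, members called ranged from 0 to 6 in control lines (ER median -0.12 to 0.02), 0 to 1 in clones (ATF4 median -0.01 to 0.09), 0 to 2 for the difference of responses (ER median -0.03 to 0.14, ATF4 median -0.32 to 0.02), 0 to 4 on DMSO and 0 to 6 under MDV3100 (ER median -0.12 to 0.16, ATF4 median -0.19 to 0.15). Shares of all genes are not given for the fits without 1 line, so these ranges say nothing about the members beside other genes.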
